A study of Danio rerio with 2 samples.

Results

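Regions of open chromatin that were called in the *hos* mutant heart library and not in the sibling heart library are described here. The members were chosen by the deposited call marks of the merged regions, with a mark in the mutant and none in the sibling, and 7247 of 41473 regions (17.5%, Wilson 95% interval 17.1 to 17.8) met this. The call marks derive from the signals themselves, so the signals given below describe the members and support nothing. With a single library of each genotype, differences could not be checked in replicates or tested.

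ATAC-seq was performed on hearts dissected from zebrafish embryos at 96 hpf, and mutants of the heart of stone (*hos*) line and their siblings, labelled wt, gave 1 library each. Both came from the *hos*/Tg(*myl7*:GFP) line, which carries a green fluorescent reporter driven by a cardiomyocyte promoter, and 60 hearts are named in the protocol, so each library is a pool. The labels give cardiomyocytes as the cell type and the whole heart as the tissue. In such bulk samples, fewer cells of a type and less accessible DNA per cell cannot be told apart.

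In ATAC-seq a transposase inserts adapters where DNA is not covered by nucleosomes, and the inserted sites pile up at active promoters and enhancers. SWI/SNF complexes use ATP to slide or evict nucleosomes and thereby open such elements. Smarce1, named in the series title, is a DNA-binding subunit of these complexes, and in the heart they are known to act with cardiac transcription factors.

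Summed over all regions, the sibling library held 4091429 estimated tags and the mutant library 4748194, and the log2 ratio (mutant to sibling) had a median of 0.15. Log2 ratios here are of signal plus 1 and uncentred, so they are read against that offset. Folds are of estimated tags and uncentred too, so an interval above 1 need not exceed the difference in library totals. Of the cardiomyocyte markers with a promoter region, *myl7* had a sibling signal of 143 and a mutant signal of 181, and *tnnt2a* had 20 and 51.4. Those of *tnni1b*, with 21.9 and 34.9, and *nppa*, with 17 and 48.7, were members and so chosen by the rule. Throughout, paired values give the sibling library first and the mutant library second. At promoters, the endocardial *cdh5* had 22.4 and 40.9 and *fli1a* 27.2 and 43.8, while the epicardial *tbx18* had 52.6 and 33.9 and *wt1b* 31.3 and 16.6. Markers of other tissues were present too, and they did not move in a single direction. The epidermal *krt4* was close to equal, with 91.9 and 93.5, and *cdh1* had 34.9 and 22. The neuronal *elavl3* had 99.2 and 171, and *sox10*, a gene of another cell type, the neural crest, 52.1 and 42.8. Markers of skeletal muscle were uneven, with 31.1 and 5.29 at *mylpfa* and 51.4 and 69.4 at *ckma*. The part of other cells in the calls was not tested.

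The mutant-only regions had low signal, and the sibling library held signal there too. Their average signal, a mean pileup over the region, had a median of 30.9 in the mutant (quartiles 27.7 and 36) and of 20.3 in the sibling (16.9 and 23.8). The median log2 ratio was 0.63 (order-statistic 95% interval 0.62 to 0.64), with quartiles of 0.42 and 0.89. They were short, with a median length of 256 bp against 249 bp in sibling-only regions and 424 bp in shared ones. Together they held 6.49% of the estimated tags in the mutant library and 4.63% in the sibling.

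At least 2-fold higher signal in the mutant was seen in 1277 members, or 17.6% of them, where 3.32% of all regions passed the same limit. The limit is on the measure behind the calls, so nothing is read from that gap. In 60 members the mutant signal was the lower of the pair. An exact binomial interval of the fold on estimated tags, which covers counting error only, lay above 1 in 2820 members (38.9%). For the remaining members the interval included 1. Of all regions, 24.5% had an interval above 1, and of shared regions 27.8%.

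Calls and signals overlapped at the edge of the choice. The weakest member had a mutant signal of 21.3, while the weakest region with a call in the mutant at all had 17.2. On the sibling side, called regions went down to 16.2, and 503 members (6.94%) had a sibling signal at or above 29.9, the median of sibling-only regions. In 119 members it reached 43.4, the median of shared regions. A missing call thus did not mean a missing signal.

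**Figure D1:**
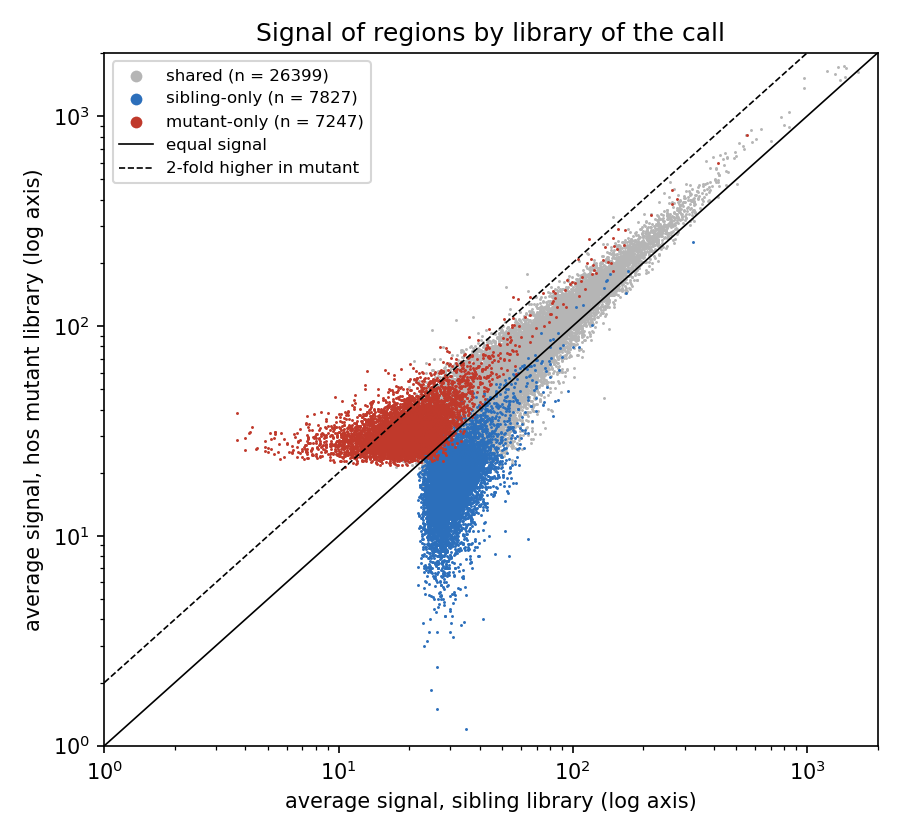
Average signal of each region in the sibling library (x axis, log scale) and the *hos* mutant library (y axis, log scale), with 1 point per region colored by the library of its call. The 7247 mutant-only regions lie mostly between the line of equal signal and the 2-fold line, and a thin tail of them runs into the strong shared regions up to a mutant signal of 809.

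Members with the lowest ratio lay on the other side of equality. At the start of *clstn2*, which encodes a calsyntenin of synaptic membranes, a region on chromosome 2 (39108263 to 39108484) had signals of 28 and 22.9, a fold of 0.816 (0.452 to 1.48). Regions inside LOC100536109, with 31.4 and 26.4, and at the start of zgc:158263 next to *hspg2*, with 33.2 and 28.2, followed. All 3 intervals include 1, so these calls in the mutant went with no detectable difference at this depth.

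Positions along genes were not used by the rule. Of the members, 1516 (20.9%, with an upper Wilson bound of 21.9) lay at a promoter, defined as within 1000 bp of an annotated gene start, and 3556 (49.1%, 47.9 to 50.2) lay elsewhere inside a gene. A further 1105 (15.2%) were outside genes but assigned to one by the authors, and 1070 (14.8%) had no gene assigned. Mutant-only regions were thus mostly distal, as were sibling-only ones, whereas 46.6% of shared regions were promoters.

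Between the regions held by 1 library, the promoter share differed by genotype of the call. It was 20.9% in mutant-only and 11.1% in sibling-only regions, a difference of 9.79 percentage points (Newcombe 95% interval 8.62 to 11.0). Inside genes the order was reversed, at 49.1% and 60.6% (-11.5 points, -13.1 to -9.96). Such intervals count each region as an independent draw and leave out any variation from one library to another.

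The difference was also present among regions of like signal. In 6 bins of the larger signal of the pair, the promoter share of mutant-only regions was above that of sibling-only regions in 6, and the interval of the difference was above 0 in 5. The shares went from 12.6% against 8.43% in the weakest bin to 35.4% against 18.3% between 40 and 60. At 60 and above it was 35.2% of 193 regions against 24.7% of 77 (-1.89 to 21.4 points).

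Outside the members, the ratio between the libraries also differed by position. Shared promoter regions, which the rule left out, had a median log2 ratio of 0.24 (0.23 to 0.25), against 0.07 (0.06 to 0.08) in shared regions inside genes. These 2 groups of shared regions also differed in signal, with medians of 52.6 and 62.5 at promoters and 37.7 and 38.9 inside genes. The part of the promoter offset in the calls was not tested. Within the members themselves the ratio hardly varied by position, with medians of 0.65 at promoters, 0.62 inside genes and 0.64 where no gene was assigned. The calls constrain the ratio of members, so nothing about the offset is read from these medians.

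**Figure D2:**
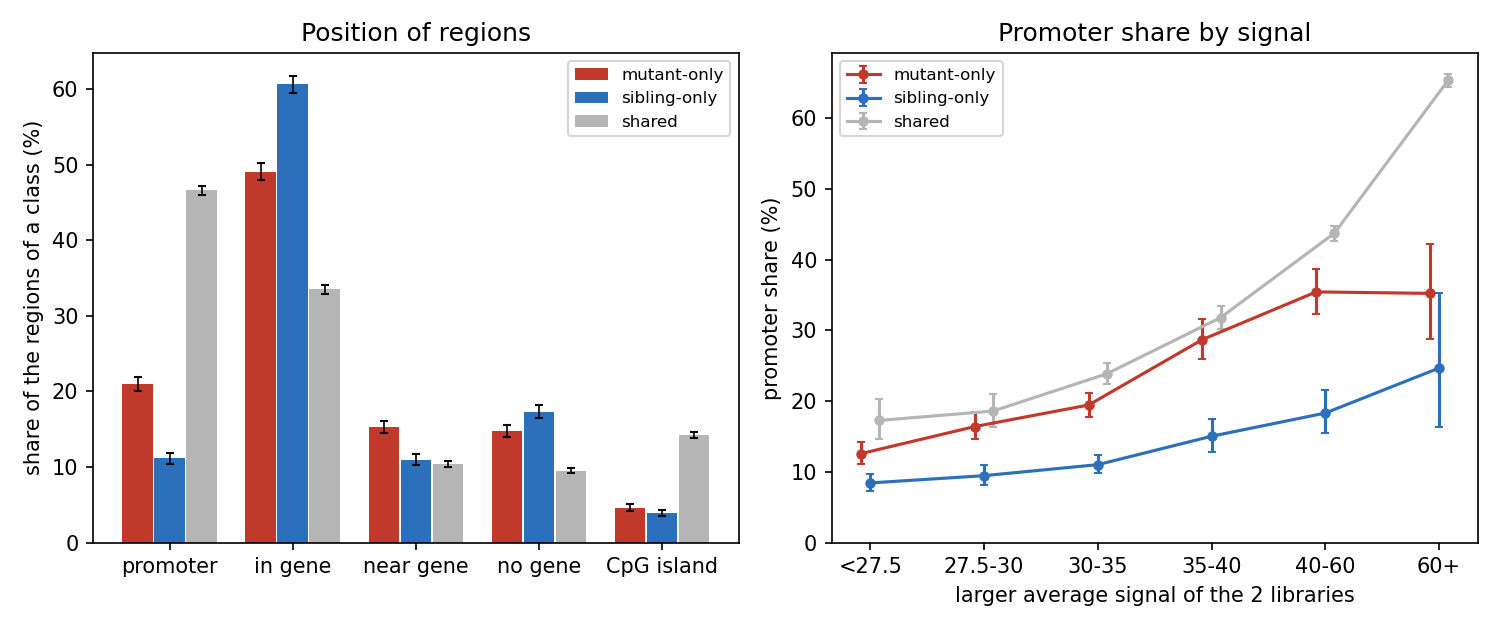
Left, share of regions (%) at promoters, inside genes, near genes, without an assigned gene and at CpG islands for the 3 classes of call, and right, promoter share (%) in bins of the larger signal of the 2 libraries; bars and points are shares with Wilson 95% intervals. Mutant-only regions stand at 20.9% promoters, between 11.1% in sibling-only and 46.6% in shared regions, and lie above sibling-only regions in each bin.

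CpG islands, stretches rich in CG dinucleotides that mark many vertebrate promoters, were seldom involved. They were marked in 332 members (4.58%, 4.12 to 5.09), in 3.88% of sibling-only regions and in 14.2% of shared regions. The difference from sibling-only regions was 0.697 points (0.0545 to 1.35). It kept no single direction over the bins of signal, where mutant-only regions had the higher share in 4 of 6.

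At promoters the mutant-only regions sat close to the start. Their centers lay at a median of 120 bp from it, and 807 (53.2%) reached over it, against 84.9% of shared promoter regions and 45.2% of sibling-only ones. They served 1619 genes, 7.01% of the 23107 in the gene table. Of these, 372 (23.0%) also had a promoter region called in the sibling, and 1247 had none. The share was similar the other way round. Of 928 genes with a sibling-only promoter region, 187 (20.2%) had a further one called in the mutant.

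The strongest promoter member was at *actb2*, which encodes cytoplasmic beta-actin, on chromosome 3 (40529222 to 40529427), at 458 bp from the start, with signals of 82 and 147 and a fold of 1.79 (1.35 to 2.42). It lay between stronger shared regions of *actb2*, one at the start with 209 and 295 and one inside the gene with 200 and 282. The start of *actb2* was thus called in both libraries.

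Next came *histh1l*, a linker histone gene, with 84 and 143 on chromosome 5 (27432877 to 27433149). The *sin3aa* region, at a gene for a scaffold of histone deacetylase complexes, had 84.3 and 136. Further strong ones were at *rfx1b* and *foxo4*, which encode transcription factors, *dyrk1aa*, a kinase gene, *irs2b*, for an insulin receptor substrate, *slc25a5*, for a mitochondrial adenine nucleotide carrier, and *ajuba*, for a LIM domain protein of cell junctions. Of the 15 strongest promoter members next to a named gene, the highest fold was at *slc43a2a*, an amino acid transporter gene, with 36.1 and 88.9 and a fold of 2.46 (1.79 to 3.52). In 12 of the 15 a region called in the sibling lay within 1000 bp, at a gap of 141 bp for *actb2* and 71 bp for *dyrk1aa*. The interval of the fold was above 1 in 14 of the 15, with *slc25a5* as the exception (79.3 and 104.7, 0.992 to 1.77). Lower bounds were as low as 1.02 at *ywhaqb* and 1.05 at *myh9b*, and no interval was corrected for the larger mutant total.

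The strongest members by mutant signal lay elsewhere. Of the 20 with the highest mutant signal, from 199 to 809, none was at a promoter or a CpG island and 14 had no gene assigned. Their sibling signal ran from 105 to 552, and 2652 shared regions had at least the lower of these. In every one of the 20 the interval of the fold was above 1, but 1 reached 2-fold.

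The first was a region of 215 bp on chromosome 7 (53014988 to 53015203), with signals of 552 and 809 and a fold of 1.47 (1.31 to 1.64). The second, on chromosome 10 (16798925 to 16799136), had 415 and 598, and another 3 kb along the same stretch (16801981 to 16802211) had 277 and 405. A further region on chromosome 7 (64605835 to 64606057) had 266 and 446, and its fold was 1.68 (1.44 to 1.97). No gene was assigned to any of these.

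All 20 stood in dense clusters of open regions. Within 10 kb they had 3 to 10 other regions, with a median of 6, where members as a whole had a median of 1 and 3090 members (42.6%) had none. A stronger shared region lay within 10 kb of each of the 20, and the median gap to the nearest region called in the sibling was 507 bp. The shared regions within 10 kb had a median log2 ratio of 0.12 to 0.68 per member, against 0.45 to 1.15 in the 20 members themselves. The lowest, next to *or129-1*, was below the 0.15 of all regions, and at LOC110438161 a shared neighbor had less signal in the mutant (189 and 177.7).

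The one member of the 20 past 2-fold was near the end of chromosome 7 (6328 to 6646), with signals of 117 and 259 and a fold of 2.22 (1.84 to 2.68). Of the members with a gene, 2 lay downstream of a *trnar-ccu* tRNA gene on chromosome 21 and 1 downstream of the odorant receptor gene *or129-1* on chromosome 15. Another 2 lay inside LOC110438161 on chromosome 2, an uncharacterized locus of 79.0 kb with 26 regions. Of these 26, 7 were mutant-only, 19 shared and 0 sibling-only, and 25 of the 26 had a higher signal in the mutant.

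**Figure D3:**
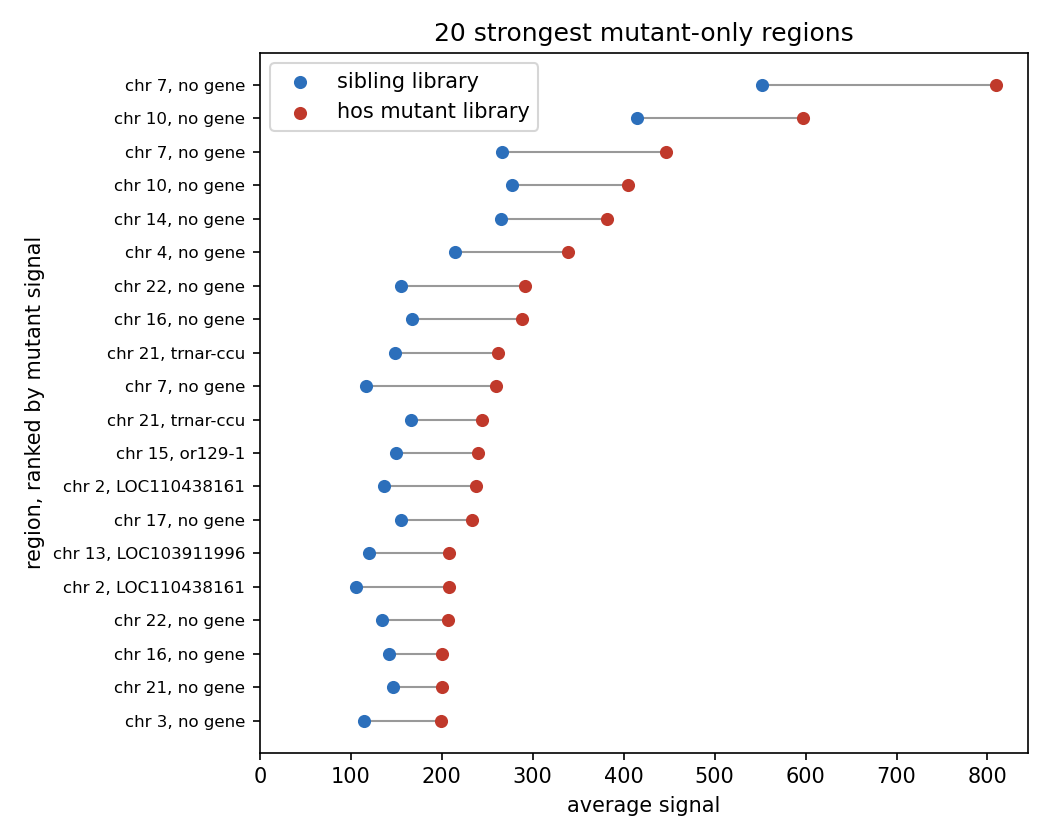
Average signal in the sibling library (blue) and the *hos* mutant library (red) of the 20 mutant-only regions with the highest mutant signal, 1 row per region, labelled by chromosome and assigned gene. The sibling signal of these regions runs from 105 to 552 and the mutant signal from 199 to 809.

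Members with the highest ratio were another set. Among members with a mutant signal at or above 39.3, the median over all regions of the larger signal of the pair, the highest log2 ratio was 2.14, inside zgc:174690 on the long arm of chromosome 4 (61687737 to 61688027), with signals of 9.67 and 46.1. The second and the seventh stood together on chromosome 24. There, 3 members stood in a row between 2924484 and 2925652, with 13 and 50.2, 23.6 and 45, and 13.3 and 60.9.

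The chromosome 24 members lay outside genes and were assigned to *fam69c*, a kinase-like gene, LOC110438345 and LOC103909736. The shared region at the *fam69c* start had 40.3 and 43.6, a fold of 1.08 (0.776 to 1.51). No region called in the sibling lay within 6707 bp of the first member. The folds of the 3 members were 3.86 (2.21 to 6.96), 1.91 (1.11 to 3.36) and 4.59 (2.67 to 8.51). On the other side, a shared region at *cidea* had 74.7 and 108, a fold of 1.45 (1.23 to 1.71).

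Others of the 10 highest lay at or in known genes. At the start of *cbr4*, which encodes a carbonyl reductase of mitochondrial fatty acid synthesis, signal was 13 and 52.2, a fold of 4.01 (2.49 to 6.87). At the start of *ddx10*, for an RNA helicase, it was 11.6 and 44.2. Inside *rbfox3b*, the gene of a neuronal splicing factor, it was 15.8 and 61.5, a fold of 3.90 (2.59 to 5.95), and inside *map4k4*, for a kinase of the Jnk pathway, 11.4 and 42.2. A region upstream of *herpud2* had 10.3 and 44, one on chromosome 25 without a gene had 16.3 and 59.9, and one next to *dclre1c*, a DNA repair gene, had 11.7 and 46.7. Each of the 10 had an interval of the fold above 1. They were picked for this ratio, so nothing is read from their intervals.

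Few members were near empty in the sibling library. Its signal was under 10 in 206 of them, whose mutant signal reached 46.1 at most and had a median of 27.54. The highest ratio of all members was among these, with 3.70 and 38.3 near LOC108183960 on chromosome 4, and the next lay upstream of *sts*, the steroid sulfatase gene, with 4.29 and 33.1. Of the 206, 12.1% were at promoters and 48.5% inside genes.

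Members spread over all 25 chromosomes, at 15.8% of the regions of chromosome 11 to 20.5% of those of chromosome 4. On the long arm of chromosome 4, from 30 Mb on, 119 regions were mutant-only (30.7% of its regions), 54 sibling-only and 215 shared. The remainder of the chromosome had 189 mutant-only (16.9%), 221 sibling-only and 708 shared regions. Of all regions, 17.5% were mutant-only. In bins of 5 Mb with at least 15 regions held by 1 library, the mutant-only share of those regions had a median of 48.1% and ran from 27.7% up. The highest was the first 5 Mb of chromosome 3, where 18 regions were mutant-only, 0 sibling-only (Wilson interval of the share 82.4 to 100) and 66 shared. This bin was picked from 271 for its value, and the 30 Mb boundary on chromosome 4 was also set with values in view, so both are descriptions only.

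Several members could be assigned to 1 gene. Of 23107 genes, 7676 (33.2%) had at least 1 mutant-only region, 1534 at least 2 and 367 (1.59%) 3 or more, and 44 had 5 or more. The 367 genes held 1231 of the members. For sibling-only regions 527 genes had 3 or more, and 107 genes had 3 or more of both kinds.

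Genes with many members were long. The median length of the 367 was 128 kb, against 13.8 kb over all genes, and 213 (58.0%) were over 100 kb, against 7.40% of all genes. Of the pairs of gene and member, 75.9% were inside the gene and 8.01% within 1000 bp of its start. In 285 of the 367 the mutant-only regions outnumbered the sibling-only ones, and in 82 they did not. The genes were picked by their mutant-only count. Such an excess, here and in the genes named below, thus follows in part from the choice. Each of the 44 genes with 5 or more members also had shared regions, and 41 of the 44 were over 100 kb.

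The gene with the most members was *zfhx3* (gene 100333211, chromosome 7, 68214932 to 68872920), which encodes a large zinc finger homeobox factor. It held 11 mutant-only, 11 sibling-only and 21 shared regions over 658 kb. The 11 members had mutant signals of 25.8 to 48.4 and sibling signals of 10.2 to 30.8, and 3 were at least 2-fold higher. All lay inside the gene, between 104710 and 624711 bp from its start.

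The polarity gene *pard3bb* had 10 members, 4 sibling-only and 3 shared regions over 642 kb. Its members had 22.9 to 33.6 in the mutant, and the highest ratio, 2.01, was at signals of 5.50 and 25.2. One of them lay 108 bp from the start, with 15.11 and 30.8. In this gene mutant-only regions thus made up more than the other classes together.

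A similar excess was seen in *ptprn2*, which encodes a phosphatase-like protein of secretory vesicles, with 8 members, 1 sibling-only and 3 shared regions. The same held for *tns1b*, for the focal adhesion protein tensin, with 8, 1 and 6. The 8 members in *ptprn2* had mutant signals of 23.9 to 44.5 and sibling signals of 8.67 to 24. In *tns1b* these ranged from 29.7 to 38.1 and from 8.71 to 25, and 1 of them lay 98 bp from the start, with 19.2 and 31.

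Other genes with 8 members had more of the other classes beside them. These were *fzd6*, which encodes a Wnt receptor, with 5 sibling-only and 19 shared regions, *camta1a*, a calmodulin-binding transcription factor gene, with 5 and 8, and *fam172a*, with 2 and 11. Sibling-only regions were as many as the members or more in 9 of the 44, among them *auts2a*, *plxna1a*, *macrod2*, *hdac4*, *adka*, *mef2cb* and *zfhx3*. For *hdac4*, the gene of a histone deacetylase that holds back Mef2 factors, they were 10 against 5.

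Members without sibling-only regions beside them were found in 5 of the 44. Among these were *tshz3b*, which encodes a zinc finger factor of smooth muscle development in mouse, with 5 members and 7 shared regions, *iqgap2*, for a cytoskeletal scaffold, with 5 and 2, and *rnf220a*, for a ubiquitin ligase, with 5 and 4. At *iqgap2* the members had mutant signals of 28.1 to 45.4 and sibling signals of 12.4 to 24.2. At *tshz3b* the ranges were 25.5 to 45.1 and 10.4 to 28.1.

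The retinoic acid receptor gene *rarab* had 6 members, with mutant signals of 27.3 to 45.1 and sibling signals of 15 to 25.8, beside 3 sibling-only and 11 shared regions. The nuclear factor gene *nfia* had 6, beside 2 and 12. The Gata cofactor gene *zfpm1* and *bnc2*, a zinc finger gene of mesenchymal cells, had 5 each. So did *tgfbr3*, for a Tgf-beta co-receptor, and *tcf4*, for a basic helix-loop-helix factor.

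Among genes with 3 or 4 members, those with the most summed mutant signal were *myh9b*, the gene of a non-muscle myosin, with 4, and *loxl2b*, for a lysyl oxidase of the extracellular matrix, and *slc25a43*, a mitochondrial carrier gene, with 3 each. In *myh9b* the members at 848 and -2386 bp from the start had 59.9 and 88.3 and 75.6 and 99.7, on both sides of a shared region at the start with 319 and 365. Further inside the gene, 3 sibling-only regions had 26.6 and 20.3, 29.8 and 19.4, and 40.8 and 27.1. The gene thus held calls of each genotype.

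Names can count the same regions more than once. The 7 members of *klc1b*, a kinesin light chain gene, were all among the 9 of LOC101884438 on chromosome 13, and so were the 4 of *npas4l*, a transcription factor gene known in zebrafish for starting endothelial and blood fates. The 3 members of *pak2b* were those of *aqp12*. Similarly, 5 tRNA genes on chromosome 22 shared 3 members.

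**Figure D4:**
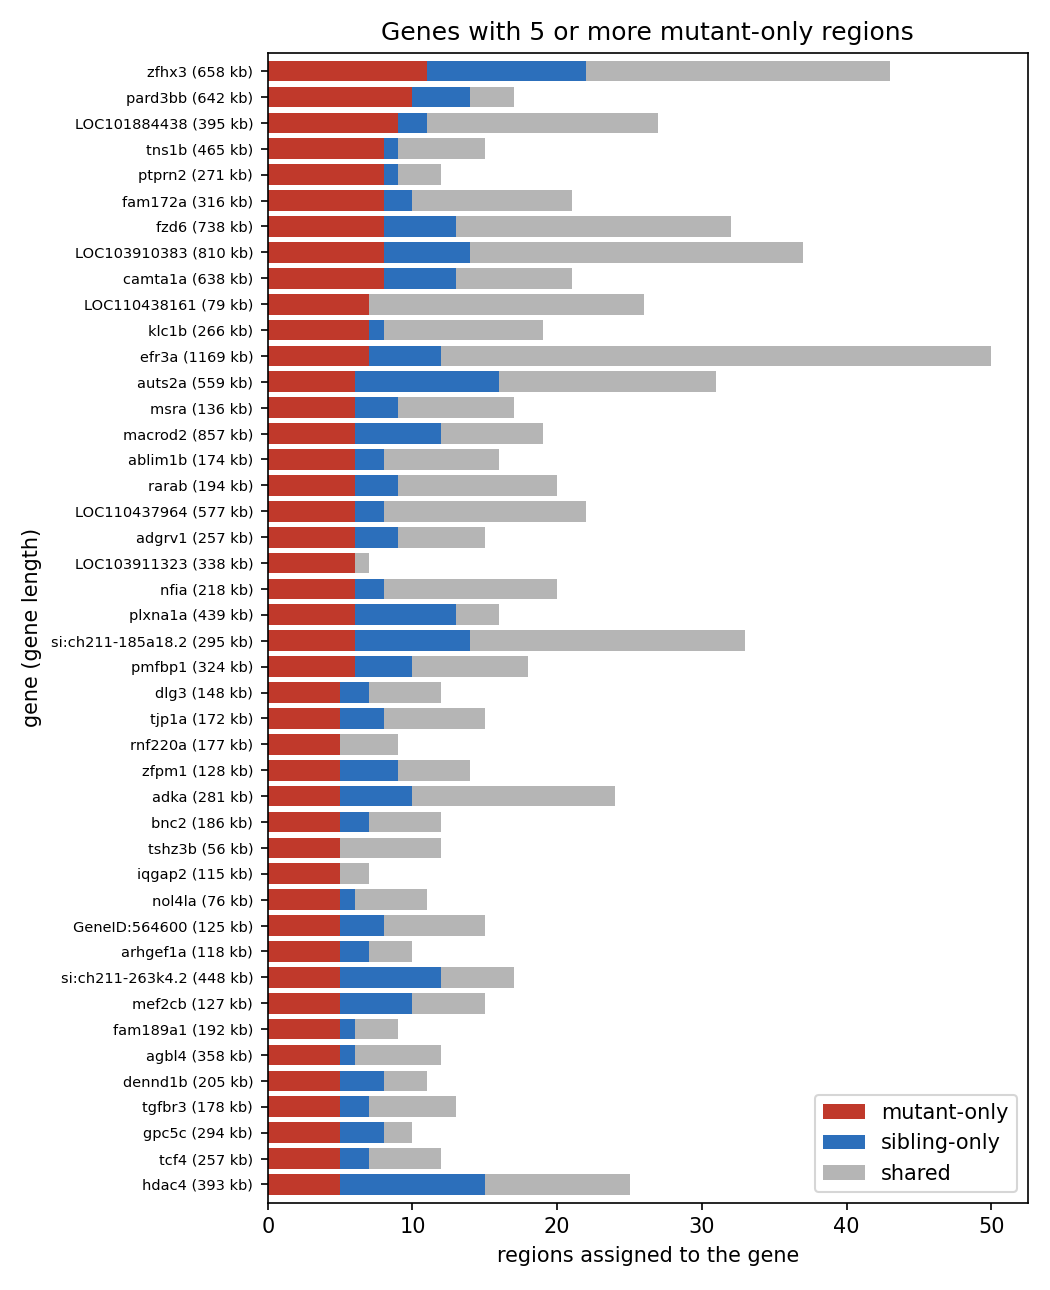
Number of regions assigned to each of the 44 genes with 5 or more mutant-only regions, split by class of call, with the gene length in kb after the name; a gene whose name had turned into a date is shown by its ID. Mutant-only regions lead the bars by the ordering, shared regions are present in all 44, and sibling-only regions are at least as many as mutant-only ones in 9.

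Of the 367 genes with 3 or more members, 21 had no region called in the sibling at all, and they were singled out after their values were seen. The matching count for sibling-only regions is not given, so no excess is read from the 21. The heart gene among them was *tnni1b* (gene 494070, chromosome 6, 54806935 to 54826061), which encodes a troponin I of the cardiac thin filament, a protein that blocks contraction until calcium binds. Its 4 regions were all mutant-only. At the start (54825971 to 54826217) signals were 21.9 and 34.9, a fold of 1.59 (0.925 to 2.76).

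The *tnni1b* region with the largest difference lay -5535 bp from the start, with 20 and 44.4 and a log2 ratio of 1.11. One inside the gene had 16.9 and 26.8, and one downstream 27.1 and 29.8. All 4 were higher in the mutant library, but only for the region at -5535 bp was the interval of the fold above 1 (1.60 to 3.08). Developmental genes in the same set were *ascl1b*, a proneural gene, *hoxd10a* and *hoxb6b*, patterning genes of the body axis, and *sp8a*, a zinc finger gene of limb and brain development. The 3 regions of *hoxb6b* lay outside it and were the promoter members of *hoxb1b*, *hoxb5b* and *hoxb8b*. Of these neighbors, *hoxb1b* also had 1 sibling-only and *hoxb8b* 1 shared region. At *hoxd9a*, 3 members had the same summed mutant signal as those of *hoxd10a* (117.773), beside 1 shared region. For these 2 Hox genes, the lack of a sibling call thus depends on how regions were assigned among neighbors.

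Of the *ascl1b* regions, the one at -79 bp had 19.3 and 31.3 and one downstream 11 and 26.8. The *hoxd10a* regions had mutant signals of 37.5 to 41.9 and sibling signals of 24.2 to 27.4. The genes *gpr37b*, for a receptor of glia, *map4k2*, for a kinase, *gfra1b*, for a Gdnf co-receptor, *phka1b*, for a phosphorylase kinase subunit, and *ssna1*, for a protein of centrioles and cilia, were also in this set. The remaining 11 had clone-based or uncharacterized names.

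Gene lists gave a view by function. Of the regions assigned to any gene, 16.9% were mutant-only and 17.7% sibling-only, and each list is read beside these shares. Of all genes, 33.2% had a member and 27.2% a sibling-only region, 7.01% had a member at the promoter and 4.02% a sibling-only region there. Of the 23107 genes, 14852 had a promoter region of any class. The 7.01% and 4.02% also count genes without one, so they understate the shares among genes that could hold such a call. A list above them is thus not read as an excess. Regions per gene count a region once even where several genes were assigned to it. Over all genes this gave 1.58, from 36541 regions and 23107 genes, while the pairs of region and gene numbered 60741. The 1.58 thus understates the regions assigned to a single gene, and the lists are not read against it. A gene with more regions can hold a call of either kind more often. The 20 lists held 910 names, of which 790 matched a symbol in the gene table and 12 another symbol. In the lists, 85 genes had a member within 1000 bp of the start, through 86 regions. The 86 had a median log2 ratio of 0.64, close to the 0.63 of all members, 12 were at least 2-fold higher and 31 had an interval above 1.

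Cardiomyocyte and sarcomere genes had 25 mutant-only and 14 sibling-only among 103 regions, or 24.3% and 13.6%. Of 37 genes in the files, 20 (54.1%, against 33.2% of all genes) had a member and 13 (35.1%, against 27.2%) a sibling-only region. The list had 2.78 regions per gene. Promoter members were at 6 (16.2%, against 7.01% of all genes) and sibling-only promoter regions at 1 (2.703%, against 4.02%). The median log2 ratio of the members was 0.73. At *nppa*, which encodes a natriuretic peptide of the heart chambers, the region at -113 bp had 17 and 48.7, a fold of 2.86 (1.73 to 4.77), and was the only one of the gene; it was also assigned to the neighboring *nppb*.

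At *vmhcl*, a ventricular myosin heavy chain gene, signal was 12.1 and 33.5, a fold of 2.76 (1.74 to 4.43). The start of *myom1a*, for an M-band protein that ties thick filaments together, had 19.8 and 38.8 and a fold of 1.95 (1.28 to 3.09). At *lmod2b*, for the actin filament nucleator leiomodin, it had 20.1 and 34.1 (0.980 to 2.89 for the fold), and at *kcnh6a*, for a repolarizing potassium channel, 31.2 and 46.7 (0.993 to 2.33). Of the 6 promoter members in this list, 3 thus had an interval above 1. Elsewhere, *actn2b*, *atp2a2a*, *gja3*, *mybpc3*, *myh6*, *pln*, *ryr2b* and *ttn.1* held members away from their starts, such as one inside *myh6*, the atrial myosin heavy chain gene, with 8.43 and 25.1.

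Cardiac transcription factor genes had 44 mutant-only and 40 sibling-only among 189 regions (23.3% and 21.2%). Of 42 genes, 22 had a member and 22 a sibling-only region (52.4% each, against 33.2% and 27.2% of all genes). The list had 4.5 regions per gene. Promoter members were at 3 (7.14%, against 7.01%) and sibling-only promoter regions at 4 (9.52%, against 4.02%). At *nkx2.5*, an early cardiac homeobox gene, signal was 17.3 and 43.3, a fold of 2.504 (1.39 to 4.38), at *meis1a* 29.7 and 55.3 (1.14 to 3.08 for the fold), and at *zfpm2b* 23.6 and 31.4 (0.787 to 2.24). Away from starts, *hand2* had 2 members, the nearer with 28.4 and 56.9, beside a shared promoter region with 40.5 and 75. At *isl1*, a gene of cardiac progenitors, a member at -1154 bp had 12.6 and 35.3, while the shared region at the start had 41 and 45.3. One member inside *meis1b* had 16.9 and 49.7, one inside *zfpm2a* 19.8 and 41.2, and one assigned to both *tbx5a* and *tbx3a* 19.9 and 43.9. The gene *mef2cb* had 5 members, of which one was lower in the mutant (25 and 24.4).

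Other cell types of the heart were represented as well. Epicardium, pericyte and mesenchyme genes had the highest share of mutant-only regions of the 20 lists, 26 of 87 (29.9%), with 14 sibling-only (16.1%). Promoter members were found at 7 of its 30 genes (23.3%, against 7.01% of all genes) and sibling-only promoter regions at 3 (10%, against 4.02%), at 2.9 regions per gene. Among the 7 were *bnc2* with 17.7 and 41.2, *col1a1b*, a collagen gene, with 19.1 and 35, *tagln* and *acta2*, smooth muscle genes, with 23.3 and 36.9 and with 24 and 34.7, and *wt1a*, an epicardial factor gene, with 21.8 and 30.8. Of the 7, those of *bnc2* and *col1a1b* had an interval of the fold above 1. At *wt1b*, the paralog of *wt1a*, the promoter region was sibling-only, with 31.3 and 16.6, and at *tbx18* it was shared, with 52.6 and 33.9, so the list held both directions.

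Endocardium and endothelium genes had 18 of 81 (22.2%), with 10 sibling-only (12.3%), and the median log2 ratio of the members was 0.89. Promoter members were at 3 of 27 genes (11.1%, against 7.01% of all genes) and sibling-only promoter regions at 0. Starts of *fli1b*, an ETS factor gene, *podxl*, for a sialomucin of vessel lumens, and *egfl7*, for a secreted vessel factor, held members with 20.1 and 32.9, 23.3 and 37.1, and 27.3 and 39.5. The interval of the fold was 1.03 to 2.61 at *fli1b* and 1.02 to 2.56 at *podxl*. At *egfl7* it included 1 (0.839 to 2.45). Blood and immune genes had 9 of 31 (29.0%), with 4 sibling-only (12.9%), and skeletal muscle genes 11 of 46 (23.9%), with 10 sibling-only (21.7%). Neural and neural crest genes had 34 of 147 (23.1%), with 30 sibling-only (20.4%). Promoter members were at 7 of 41 neural and neural crest genes (17.1%, against 7.01% of all genes). For skeletal muscle they were at 3 of 21 (14.3%), and for blood and immune genes at 2 of 18 (11.1%). Sibling-only promoter regions were at 3 (7.32%, against 4.02% of all genes), 3 (14.3%) and 0 genes of these lists. Epidermis, gut and liver genes had 15 of 101 (14.9%), with 13 sibling-only (12.9%). There, promoter members were at 5 of 35 genes (14.3%) and sibling-only promoter regions at 2 (5.71%). In the last list *pdx1*, a pancreatic homeobox gene, had 20.8 and 63.1 and a fold of 3.03 (2.04 to 4.61), and *cyt1*, a keratin gene, 10.9 and 30.1. For its further promoter members, at *cldn7b*, *grhl1* and *hnf4a*, the interval of the fold included 1. Of the skeletal muscle genes *pax3a*, of muscle precursors, had 11.5 and 30.5 at its start, and of the neural genes *sox1a*, of neural progenitors, 24.7 and 41.6. The promoter members at *six1b* and *smyhc3*, also of the skeletal muscle list, had intervals that include 1. The median log2 ratio of the skeletal muscle members was 0.36.

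Notch pathway genes had 29 mutant-only and 21 sibling-only among 138 regions (21.0% and 15.2%), at 4.18 regions per gene. Promoter members were at 6 of 33 genes (18.2%, against 7.01% of all genes) and sibling-only promoter regions at 1 (3.03%, against 4.02%). The ligand genes *dll4*, with 22.7 and 60.6 and a fold of 2.67 (1.90 to 3.76), *dla*, with 22.8 and 42.4, *jag2b*, with 34 and 57.3, and *dlc*, with 28.3 and 34.2, were among the 6, together with the ligand-like *dlk1* and the target *her4.1*. For *dlc* (0.709 to 2.19) and *her4.1* (0.974 to 3.09) the interval of the fold includes 1.

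Wnt genes had promoter members at 11 of 58 genes (19.0%, against 7.01% of all genes) and sibling-only promoter regions at 2 (3.45%, against 4.02%), at 4.103 regions per gene. Over all positions they had 47 mutant-only and 48 sibling-only among 238 regions (19.7% and 20.2%). Ligands were *wnt5b*, *wnt7bb*, *wnt9a* and *wnt11r*, receptors *fzd5* and *fzd10*, and secreted or cytoplasmic inhibitors *dkk1b*, *sfrp1a*, *sfrp1b* and *axin1*, with the agonist *rspo2*. The largest log2 ratio was 0.71 at *sfrp1b*, with 17.1 and 28.6, and the smallest 0.08 at *wnt5b*, where the fold interval was 0.623 to 1.84. None of the 11 reached 2-fold. Only *fzd10* (1.05 to 2.47) and *wnt7bb* (1.01 to 2.61) had an interval of the fold above 1.

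Bmp and Tgf-beta genes had 36 and 33 regions of 191 (18.8% and 17.3%), at 3.98 regions per gene. Promoter members were at 6 of 48 genes (12.5%) and sibling-only promoter regions at 2 (4.17%). The secreted Bmp antagonist *nog2* had 9.75 and 36.9, a fold of 3.78 (1.83 to 7.86), and the effector *smad3b* 10.1 and 25.1. The ligand *gdf6a*, the receptors *bmpr1ba* and *bmpr1bb* and the inhibitory *smad7* had log2 ratios of 0.20 to 0.52. Growth factor genes of the Fgf, Vegf, Pdgf, Igf and neuregulin families had 33 mutant-only and 62 sibling-only regions of 215 (15.3% and 28.8%), with promoter members at 4 of 56 genes (7.14%) and sibling-only promoter regions at 9 (16.1%).

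**Figure D5:**
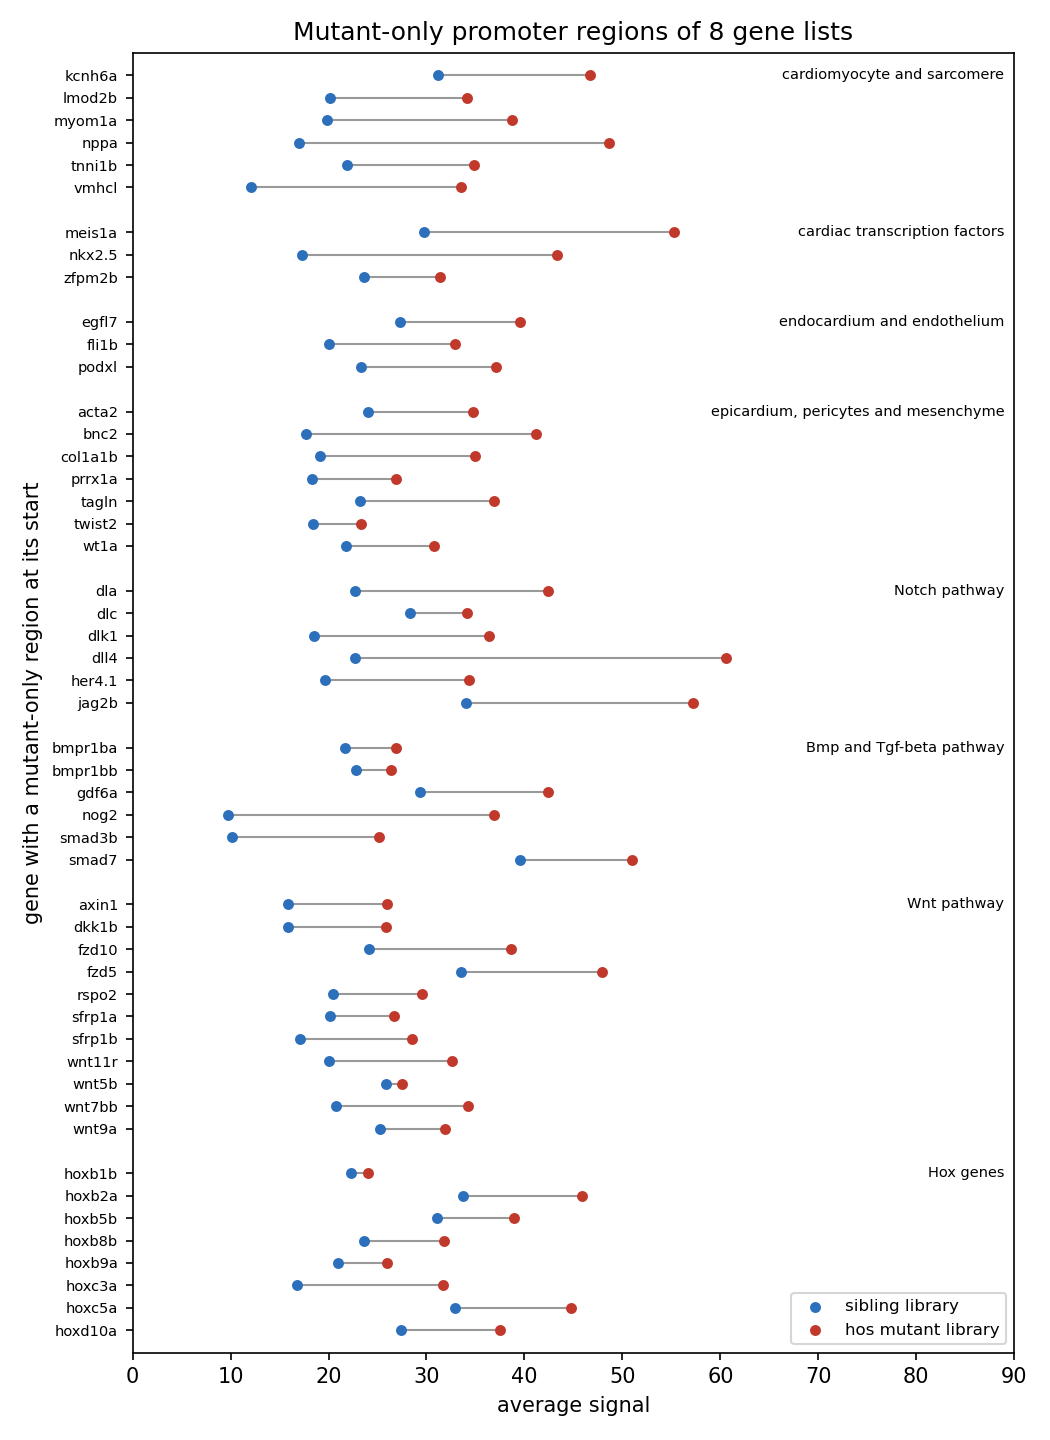
Average signal in the sibling library (blue) and the *hos* mutant library (red) of mutant-only regions within 1000 bp of a gene start, 1 row per gene, for 8 of the gene lists. All pairs are higher in the mutant, from a log2 ratio of 0.08 at *wnt5b* to 1.82 at *nog2*, and the rule chose them for the call in the mutant.

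Hox genes, which lie in tight clusters and so share regions, had 13 mutant-only and 11 sibling-only among 45 regions (28.9% and 24.4%). Promoter members were at 8 of the 40 genes (20%, against 7.01% of all genes) and sibling-only promoter regions at 3 (7.5%, against 4.02%). The promoter members had log2 ratios from 0.10 at *hoxb1b* to 0.88 at *hoxc3a*. Of the 8, *hoxc3a* alone had an interval above 1 (1.09 to 3.15). The intervals of the other 7 included 1.

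Jak/Stat genes, the pathway of the series title, had 25 mutant-only and 16 sibling-only of 136 regions (18.4% and 11.8%). Of 54 genes, 1 (1.85%, against 7.01% of all genes) had a promoter member and 2 (3.70%, against 4.02%) a sibling-only promoter region. The promoter member was at the feedback inhibitor *socs1a*, with 27.7 and 35, a fold of 1.27 (0.709 to 2.19). The genes *stat3* and *jak1* held no member, and neither did *smarce1*. Away from starts, *il11ra*, for an interleukin receptor, had 3 members with log2 ratios of 0.38 to 0.57, *pias1a*, for a Stat inhibitor, had one inside the gene with 10.8 and 35.9, and *tyk2*, for a Janus kinase, one upstream with 25.8 and 60.4.

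SWI/SNF genes had 17 and 15 of 129 regions (13.2% and 11.6%). Promoter members were at *smarcd1*, a core subunit gene, with 22.7 and 51 and a fold of 2.25 (1.31 to 3.94), and at *actb2*, described above. These were 2 of 36 genes (5.56%, against 7.01% of all genes), and sibling-only promoter regions were at 1 (2.78%, against 4.02%). At *bcl11aa* a member inside the gene had signals of 34 and 31.

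Cell cycle and replication genes had 23 mutant-only and 11 sibling-only of 166 regions (13.9% and 6.63%). Promoter members were at 2 of 59 genes (3.39%, against 7.01% of all genes) and sibling-only promoter regions at 0. The 2 were *mcm10*, a replication initiation gene, and *foxm1*, a mitotic transcription factor gene, both with an interval of the fold that includes 1. Cell cycle inhibitors had 7 and 8 of 71 (9.86% and 11.3%), with promoter members at 1 of 25 genes (4%) and sibling-only promoter regions at 3 (12%). Mitochondrial genes had 12 and 21 of 151 (7.95% and 13.9%), with promoter members at 4 of 50 genes (8%) and sibling-only promoter regions at 3 (6%). Of the 4, only the mitochondrial transcription factor gene *tfam*, with 31.5 and 52, had an interval of the fold above 1 (1.08 to 2.64). The intervals at *ndufa4* (0.843 to 1.95), *sdhd* (0.943 to 2.47) and *slc25a5* (0.992 to 1.77) included 1. Immediate early and stress genes had 9 and 11 of 137 (6.57% and 8.03%), with promoter members at 2 of 45 genes (4.44%) and sibling-only promoter regions at 2.

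Housekeeping genes had 17 mutant-only and 2 sibling-only of 111 regions (15.3% and 1.80%), so that their mutant-only share was near that of all genes and their sibling-only share below it. The promoter members were at *actb2*, at *gapdh*, the glycolytic enzyme gene, with 26.8 and 59.9 and a fold of 2.24 (1.49 to 3.36), and at *tbp*, for the TATA-binding protein, with 29.4 and 33.3. These were 3 of 41 genes (7.32%, against 7.01% of all genes), and sibling-only promoter regions were at 1 (2.44%, against 4.02%). The lists were small, and none of their shares was tested against another.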

How the data were processed

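ATAC-seq signal of *hos* mutant and sibling hearts at 96 hpf was analysed, with 1 library per genotype. For 41473 merged regions the authors deposited a call mark and the average and peak signal (pileup) of both libraries. The submitters' processing notes name danRer11 as the build and MACS2 2.1.0 as a tool. Aligner, duplicate handling, transposase shift, scaling between libraries and calling threshold: not given in the sources used here. Columns with the authors' log2 ratio and shrunken fold change were not used.

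Log2((mutant + 1)/(sibling + 1)) was computed per region. Tags were estimated as signal × length/224, which for the larger library matches the deposited tag column. Intervals of a fold are exact binomial, of shares Wilson, of differences of shares Newcombe, each at 95%. They cover counting error only, since reads are not independent molecules. Regions were assigned to gene IDs by name, chromosome and distance to the start within 2 bp, which failed for 5 of 60741 pairs. The authors assigned genes up to about 10475 bp upstream. A promoter was within 1000 bp of a start. Gene names that had turned into calendar dates were not used by name.

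Items to name were the 20 members with the highest mutant signal, genes with 5 or more members and, of those with 3 or 4, the 10 with the highest summed mutant signal, the 10 highest and 3 lowest ratios, the 15 strongest promoter members and list genes with a promoter member, leaving out placeholder symbols in the gene ranks. Not every item under this rule is described. The members and lists were chosen with earlier results of these data known. Steps were tested on simulated data. Sequences and motifs were not analysed, as no genome of this build was used here. Alternatives covered pseudocount, peak signal, centring, signal, distance to sibling calls and gene assignment. The software was scipy 1.17.1, pandas 2.3.3, numpy 2.4.6 and matplotlib 3.10.9 under Python 3.11.15.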

Additional observations from a re-analysis of the deposited data

How the results depend on the processing

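Most of the results varied here are counts or shares, which have no direction, and the choice of members largely sets the sign of their log2 ratio. Of 28 alternatives, 9 were counted as the same and 19 as moved. Some of the 9 shifted too. The 367 genes became 286 within the gene or 10 kb of its start, and 316 without members within 500 bp of a sibling call. The 1277 members at least 2-fold higher became 1438 with a pseudocount of 0.1. The median log2 ratio of 0.63 was 0.66 and 0.55 with pseudocounts of 0.1 and 5, 0.58 with peak signal, 0.48 with the median of all regions set to 0, and 0.79 over the 1191 members with a mutant signal at or above 39.3. The 1277 members at least 2-fold higher became 737 with a pseudocount of 5 and 773 after centring, 4065 at 1.5-fold and 173 at 3-fold. The promoter share of 20.9% was 25.2% within 2000 bp, 35.1% by the authors' promoter mark, 35.01% above the signal limit and 18.6% without members within 500 bp of a region called in the sibling. Sibling-only regions gave 14.0%, 21.5% and 19.0% under the first 3. Above the limit the in-gene share was 35.01% and the CpG island share 7.89%, and the latter was 4.06% without members near a sibling call. The 367 genes with 3 or more members became 24 above the limit and 127 at 4 or more. Alternatives chosen after seeing the data, leaving out tRNA genes and counting genes by name, gave 20.5% promoters and 391 genes. The cause of these shifts was not tested. No paired analysis was possible because each genotype has 1 library, and no library could be left out.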
